A study of Homo sapiens with 4 samples.

Results

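The methionine cycle and polyamine synthesis were followed through 10 genes, MAT2A, MAT2B, AHCY, AHCYL1, MTR, MTAP, AMD1, SRM, SMS and ODC1, out of 54628 gene rows counted in Panc1, a cultured line derived from a human tumour of the pancreatic duct. Of these, 9 were taken by name for their role in the pathway, and MAT2B was picked on its large difference between the groups in these same libraries. The values of MAT2B are therefore a description and carry no test, and tests are given for the other 9. Poly(A) RNA of 4 libraries was sequenced, 2 labelled as given small interfering RNA (siRNA) to knock down HMGB2, which encodes a DNA-bending protein of chromatin, and 2 labelled as given scramble siRNA as control. All 4 come from this single cell line, and the labels give no genotype, dose, time after transfection or siRNA sequence. The libraries are numbered 1 and 2 within each group, and nothing in the labels says that they are separate cultures, so the p-values measure a spread that may be technical.

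The labels and the data disagree on which group lost HMGB2. Reads on HMGB2 numbered 4021 and 2746 under the HMGB2 siRNA label but 346 and 319 under the scramble label, and the headers of the deposited count columns name the other treatment in all 4 tables. The groups are called by their labels below. "Higher" and "rose" mean higher, and "lower" and "fell" mean lower, in the libraries labelled HMGB2 siRNA, and none of these words names a baseline. Those are the libraries with the more abundant HMGB2 transcript, 8.43-fold above the libraries labelled scramble (edgeR quasi-likelihood test, adjusted p = 1.54e-33). If the column headers rather than the labels are right, every direction below is that of control over knockdown. Total counts ranged from 20340695 to 31852391 per library. All 5 epithelial and both mesenchymal markers looked for were present in all 4 libraries. Of 10 markers of other cells, CD68 had 2056 to 3283 counts over the 4 libraries, and the other 9 had at most 3 counts in any library.

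The methionine cycle supplies the methyl groups of the cell. Methionine adenosyltransferase joins methionine to ATP to make S-adenosylmethionine (SAM), methyltransferases turn SAM into S-adenosylhomocysteine (SAH), and hydrolysis of SAH followed by methylation of homocysteine returns methionine. A side branch removes the carboxyl group of SAM and passes its aminopropyl group to putrescine and then spermidine, the polyamines that dividing cells need, and the leftover methylthioadenosine is salvaged back to methionine. Pancreatic cancers often lose the salvage enzyme MTAP together with the neighbouring tumour suppressor CDKN2A.

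The transcripts of the 2 subunits of the SAM-making enzyme carry different short words in their 3′ untranslated regions (3′UTRs), and sites are shown because these subunits lay far apart in level and in their difference between the groups. The 3′UTR of MAT2A is known for hairpins that are bound and methylated by METTL16, through which the cell adjusts MAT2A RNA to its SAM supply. A search for the word TACAGANAA, read on the transcript strand, found it 6 times in the 1508 bases of the MAT2A 3′UTR (GRCh38, GENCODE transcripts), while it was present at least once in 6.01% of the 12161 tested genes with a matched 3′UTR. None of the other 9 genes had it. The 6 sites, all on the plus strand and in counted exons, are printed 5′ to 3′ with the word in capitals.
MAT2A site at chr2:85543802-85543830: tggcgtaggcTACAGAGAAgccttcaagc
MAT2A site at chr2:85544589-85544617: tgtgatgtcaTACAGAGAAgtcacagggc
MAT2A site at chr2:85544774-85544802: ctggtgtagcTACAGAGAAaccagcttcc
MAT2A site at chr2:85544889-85544917: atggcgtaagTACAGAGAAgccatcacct
MAT2A site at chr2:85545004-85545032: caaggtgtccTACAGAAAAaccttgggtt
MAT2A site at chr2:85545112-85545140: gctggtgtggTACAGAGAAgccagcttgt

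The MAT2B 3′UTR holds other words. In an earlier look at these same libraries 3 heptamers, the word GACAAAG, the word ATAGTAA and the word AATAGTA, stood out in the 3′UTRs of genes with higher values, so their presence in a gene that is higher supports nothing by itself. Within the 959 bases of the MAT2B 3′UTR, the words ATAGTAA and AATAGTA each occurred once. The last 2 words share 6 letters and can overlap. At least 1 of the 3 heptamers, read on the transcript strand, was present in 22.4% of the tested genes with a matched 3′UTR and in 4 of the 10 genes here, MAT2B, MTR, MTAP and AMD1. The sites of MAT2B, MTR and AMD1 are printed because these 3 genes were the highest of the 10 by fold change, 5′ to 3′ on the plus strand with the heptamer in capitals. MTAP, which was not called, holds ATAGTAA and AATAGTA once each like MAT2B, and its sites are not printed. The 3′UTRs of MTR and MTAP have 6337 and 6452 bases, against a median of 1014 over the tested genes with a matched 3′UTR. What part the words have in any count was not tested.
MAT2B site at chr5:163518593-163518621: ggagtttgagtATAGTAAattatgatcct
MAT2B site at chr5:163518746-163518774: aaattgtgtgaAATAGTAtaaaaatcatt
MTR site at chr1:236900436-236900464: caaaattgagcATAGTAAttacccacaga
AMD1 site at chr6:110895518-110895546: aatttttatggGACAAAGcctagaaaaga

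The 10 genes spanned a wide range of levels when counts were divided by exonic length and scaled to the same sum in every library (TPM, a level per length). MAT2A was the most abundant, with 561 to 633 TPM over the 4 libraries. It was followed by the spermidine synthase SRM (322 to 357 TPM), the spermine synthase SMS (296 to 303 TPM) and the ornithine decarboxylase ODC1 (243 to 282 TPM). Then came AMD1 (148 to 198 TPM), AHCY (148 to 162 TPM) and AHCYL1 (108 to 123 TPM), and below them MAT2B (18.0 to 83.1 TPM), MTR (7.02 to 10.9 TPM) and MTAP (2.50 to 3.08 TPM). Of neighbours in this order, only AMD1 and AHCY overlapped in their ranges. All 4 genes that make putrescine, spermidine and spermine from ornithine and SAM (ODC1, AMD1, SRM and SMS) thus had at least 147.8 TPM in every library, and MAT2A had a mean level 213 times that of MTAP. The exonic length sums every exon listed for a gene, 11535 bases for MTR and 11441 bases for MTAP, so the TPM of a gene that uses a shorter form is understated.

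**Figure D1:**
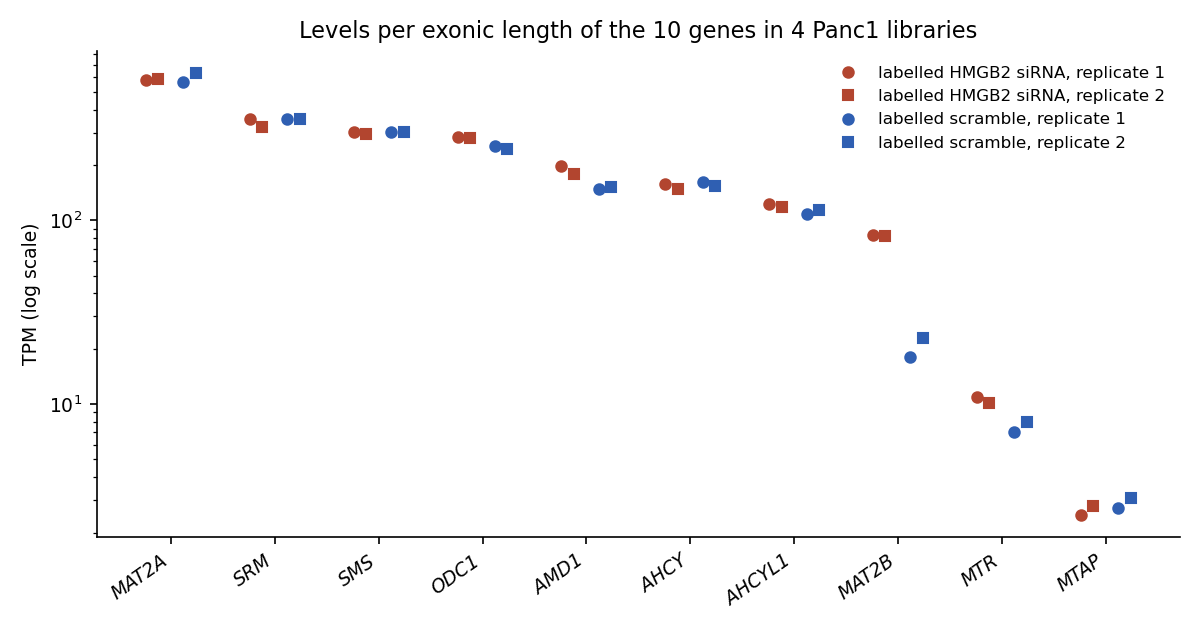
TPM (log scale) of each of the 10 genes in each of the 4 libraries, ordered by mean TPM, with colour for the labelled group and symbol for the replicate number. MAT2B and MTR separate the groups most clearly, while SMS stays between 296 and 303 TPM in all 4 libraries.

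Among the 9 genes taken by name, 3 were higher at an adjusted p under 0.05 (MTR, AMD1 and ODC1), 0 were lower and 6 did not pass. That is 33.3% called, against 30.8% of all 15161 genes tested (16.7% higher and 14.1% lower), so the share called was near that of all genes. The shares were not matched for level. MAT2A, AHCY, AHCYL1, AMD1, SRM, SMS and ODC1 each had a higher mean count per library size than at least 94.2% of tested genes. The 0 lower calls of edgeR were also 0 at an unadjusted p under 0.05 and 0 with DESeq2. The median log2 fold change of the 9 was 0.00 and that of all tested genes -0.01. In the CPM values (counts scaled to library size, with edgeR's TMM factors) the groups did not overlap for AHCYL1, MTR, AMD1 and ODC1, all 4 on the higher side, where groups were apart for 63.7% of all tested genes (32% higher and 31.6% lower).

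**Figure D2:**
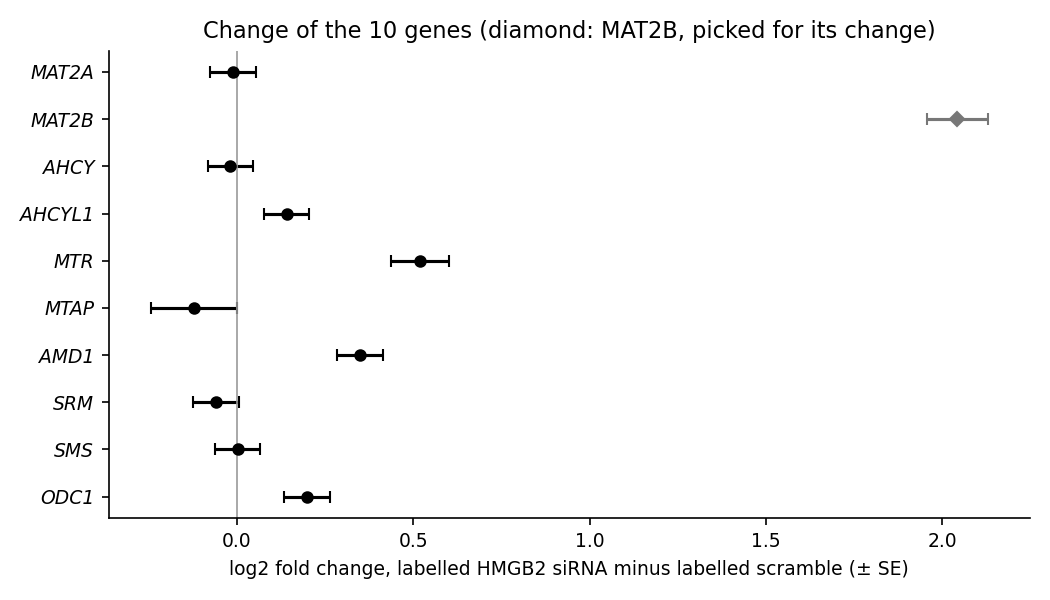
Log2 fold change of each gene between the libraries labelled HMGB2 siRNA and those labelled scramble, with its standard error from edgeR over 2 libraries a group. MAT2B (diamond) stands at 2.04, MTR at 0.52 and AMD1 at 0.35, and MAT2A, AHCY, SRM and SMS lie within 0.06 of 0.

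SAM synthesis. MAT2A (chromosome 2, 85539168 to 85545281) encodes the catalytic subunit of methionine adenosyltransferase II. It had 657 and 677 CPM under the HMGB2 siRNA label and 643 and 700 CPM under the scramble label. The lowest and the highest value were both in libraries labelled scramble, so the groups overlapped completely. Its log2 fold change was -0.01 ± 0.07 (SE; edgeR quasi-likelihood test, adjusted p = 0.931), and its sign changed with the setting (0.01 without a low-count filter). MAT2A shares 562 exonic bases, 20% of its length, with GGCX on the opposite strand, and the strand setting of the counting is not given in the sources used here. Counts over exons also do not show whether the intron that METTL16 acts on was removed.

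MAT2B (chromosome 5, 163503064 to 163519354) encodes the regulatory subunit, which has no catalytic activity of its own and binds the MAT2A protein. Under the HMGB2 siRNA label it was counted 2553 and 1660 times, and under the scramble label 390 and 452 times. These correspond to 81.2 and 80.9 CPM against 17.7 and 21.7 CPM. Both libraries labelled HMGB2 siRNA stood far above both labelled scramble, and the groups did not overlap. The fold change was 4.12 (log2 fold change 2.04 ± 0.09, SE), the 15th highest of the 15161 tested genes, and this is the value on which the gene was picked. No exon of another gene overlaps MAT2B.

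The ratio of the 2 subunit transcripts differed between the groups as MAT2B did. Per exonic length there were 0.144 and 0.139 MAT2B transcripts for each MAT2A transcript under the HMGB2 siRNA label and 0.0320 and 0.0360 under the scramble label. MAT2A exceeded MAT2B in every library. The ratio rests on the same MAT2B counts and is no second finding.

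**Figure D3:**
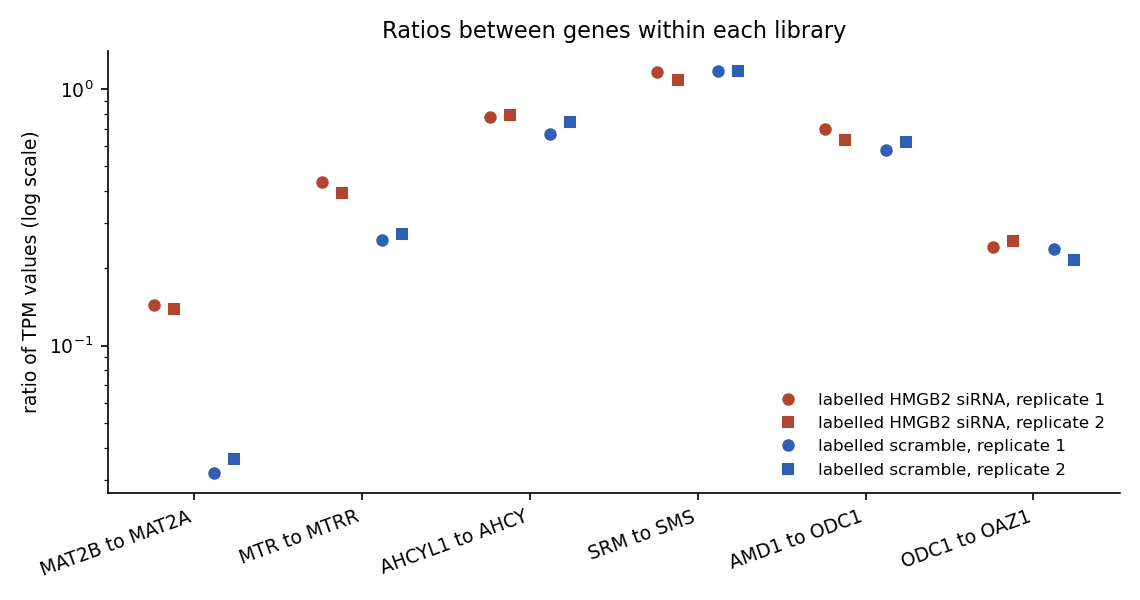
Ratios between TPM values of gene pairs (log scale) within each of the 4 libraries. The MAT2B to MAT2A ratio lies near 0.14 in the libraries labelled HMGB2 siRNA and near 0.03 in those labelled scramble, and the MTR to MTRR ratio is 0.433 and 0.394 against 0.259 and 0.273. The SRM to SMS ratio lies between 1.09 and 1.18 and the AMD1 to ODC1 ratio between 0.581 and 0.701 over the 4 libraries.

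The genes whose pattern over the 4 libraries was closest to that of MAT2B were found among 10660 others with a mean of at least 5 CPM, by the distance between log2 CPM values centred on each gene's own mean. SEC23A, which encodes a subunit of the COPII coat of vesicles, was the nearest (distance 0.25, 3.63-fold higher). The sodium-proton exchanger SLC9A2 (distance 0.251), the RNA-binding protein gene LIN28B (0.335) and MYPOP (0.349) were also among the closest 5, and 1 gene of the 5 is not reported here. With 2 libraries a group this likeness is mainly that of the fold change, and it says nothing on shared control.

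SAH hydrolysis and remethylation. AHCY (chromosome 20, 34235012 to 34311976) encodes the hydrolase that splits SAH into adenosine and homocysteine. It had 290 and 276 CPM under the HMGB2 siRNA label and 299 and 274 CPM under the scramble label, with overlapping groups (log2 fold change -0.02 ± 0.07, SE; edgeR adjusted p = 0.873). AHCYL1 (chromosome 1, 109984765 to 110023742), a relative of AHCY known as a partner of the inositol trisphosphate receptor, had 259 and 251 CPM against 229 and 234 CPM. Its groups did not overlap, but the difference was small and did not pass (1.10-fold; edgeR adjusted p = 0.0872). It passed without scramble replicate 2 (adjusted p = 0.0308), and did not in the other alternatives.

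MTR (chromosome 1, 236794304 to 236903981) encodes methionine synthase, the cobalamin-dependent enzyme that moves the methyl group of methyltetrahydrofolate to homocysteine. It was counted 1594 and 985 times under the HMGB2 siRNA label and 725 and 752 times under the scramble label, or 50.7 and 48.0 CPM against 32.9 and 36.1 CPM. Both libraries of the first pair lay above both of the second. MTR rose 1.43-fold (log2 fold change 0.52 ± 0.08, SE; edgeR adjusted p = 1.6e-06) and was called in all 10 alternatives, with log2 fold changes from 0.46 to 0.59. MTRR, which encodes the reductase that reactivates methionine synthase, did not pass, with 51.4 and 53.5 CPM against 55.7 and 58.0 CPM (edgeR adjusted p = 0.249). Per exonic length the MTR to MTRR ratio was 0.433 and 0.394 against 0.259 and 0.273.

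Salvage. MTAP (chromosome 9, 21802636 to 21941115) encodes methylthioadenosine phosphorylase, the first step of the return of methylthioadenosine to methionine. It was counted 362 and 267 times under the HMGB2 siRNA label and 280 and 288 times under the scramble label, or 11.5 and 13.0 CPM against 12.7 and 13.8 CPM. The groups overlapped and the gene did not pass (log2 fold change -0.12 ± 0.12, SE; edgeR adjusted p = 0.5). MTAP was the least abundant of the 10 genes, but it was counted in every library.

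The neighbours of MTAP give that count its context. CDKN2A, CDKN2B and CDKN2B-AS1, which follow MTAP along the chromosome, had 0 counts in all 4 libraries, which allows up to 3 counts or 0.0942 to 0.147 CPM per library. On the far side, DMRTA1 had 77 to 100 counts, and ELAVL2, beyond it, had 1 count in 1 library and 0 in the other 3. On the near side, FOCAD had 325 to 542 counts and KLHL9 364 to 596, while HACD4, between these, had 4 to 8, and IFNE, the last before MTAP among those looked at, had 3 to 10. Of the 3 neighbours with enough counts to test, FOCAD and DMRTA1 did not pass (edgeR adjusted p = 0.851 and 0.68). KLHL9 fell by 0.43 on the log2 scale (edgeR adjusted p = 0.0011), with 19.0 and 17.7 CPM against 22.3 and 27.4 CPM. MTAP shares no exonic bases with CDKN2A or CDKN2B-AS1 in the deposited gene models. A single count per gene does not show which MTAP exons the reads came from, and DNA was not measured.

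**Figure D4:**
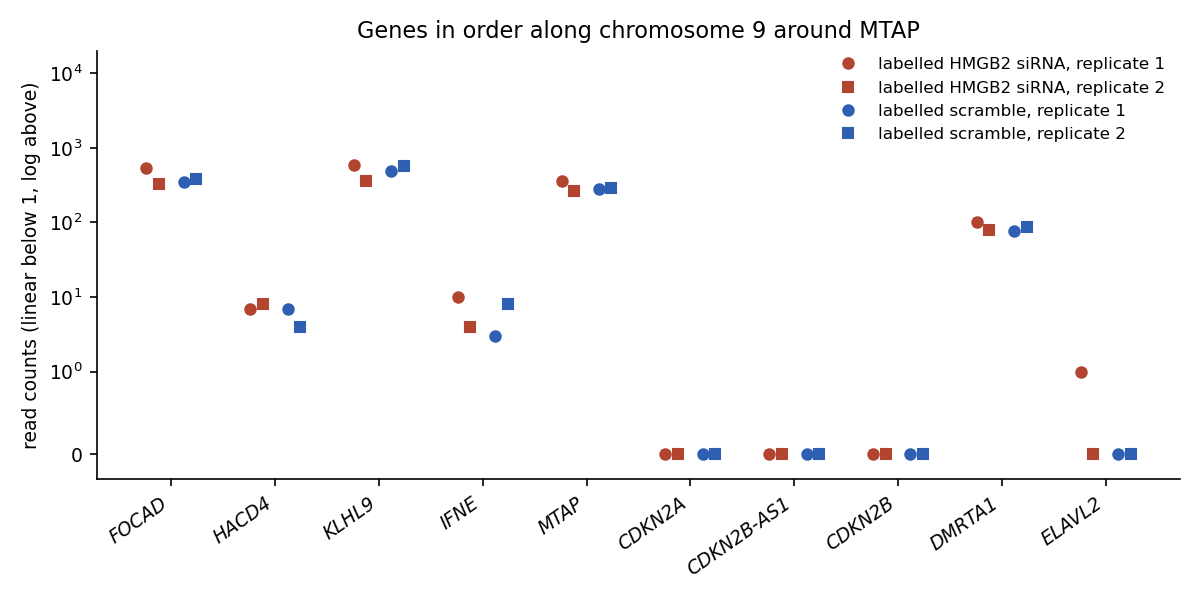
Read counts (linear below 1, logarithmic above) of 10 genes in their order along chromosome 9, in each of the 4 libraries. MTAP has 267 to 362 counts, and the 3 genes beside it have 0 in all 4 libraries before DMRTA1 is counted again, with ELAVL2 beyond it at 0 or 1.

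Polyamine synthesis. ODC1 (chromosome 2, 10439968 to 10448327) encodes ornithine decarboxylase, which makes putrescine and is the classic limiting step of the pathway. It had 343 and 346 CPM under the HMGB2 siRNA label and 312 and 288 CPM under the scramble label, so the groups were apart. The rise was 1.15-fold (log2 fold change 0.20 ± 0.06, SE; edgeR adjusted p = 0.0144). The call ended with upper-quartile scaling (adjusted p = 0.0686), with total counts (0.0528), and without HMGB2 siRNA replicate 1 (0.169), HMGB2 siRNA replicate 2 (0.184) or scramble replicate 2 (0.0524).

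AMD1 (chromosome 6, 110814617 to 110895713) encodes adenosylmethionine decarboxylase, the enzyme that commits SAM to polyamine synthesis. It had 294 and 268 CPM under the HMGB2 siRNA label and 222 and 220 CPM under the scramble label. Both libraries of the first pair were higher, and the rise was 1.27-fold (log2 fold change 0.35 ± 0.06, SE; edgeR adjusted p = 2.81e-05). It was called in all 10 alternatives, with log2 fold changes from 0.28 to 0.42.

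Neither of the aminopropyl transferases passed the test. SRM (chromosome 1, 11054589 to 11060053), which makes spermidine, had 195 to 211 CPM against 208 to 215 CPM, with a log2 fold change of -0.06 ± 0.06 (SE; edgeR adjusted p = 0.551). SMS (chromosome X, 21940709 to 21994837), which makes spermine, had 364 to 367 CPM against 358 to 371 CPM, with a log2 fold change of 0.00 ± 0.06 (SE; edgeR adjusted p = 0.981). For both genes the groups overlapped, and both changed sign under some alternatives, over which their log2 fold changes lay between -0.1144 and 0.0362.

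The surrounding pathway was read from a list of 58 other genes, of which 52 had enough counts to test. Of these, 14 were higher, 8 were lower and 30 did not pass, so that 42.3% were called, against 30.8% of all tested genes. The list was not matched to all tested genes in level. The median log2 fold change of the list was 0.10. The groups of the list below hold 4 to 12 tested genes each, and their counts stand beside the 16.7% higher and 14.1% lower of all tested genes, so that a few calls in a group say nothing particular to it. The calls described below have a mean of at least 5 CPM. MAT1A and SLC43A2 (higher) and AZIN2 (lower) were also called at lower levels, and were named after their values were seen.

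Among 7 genes of SAM synthesis, transport and sensing 4 were higher and 0 lower (0 lower at an unadjusted p under 0.05 and 0 with DESeq2, which called 1 higher). SLC7A5, the light chain of the LAT1 transporter that brings in methionine and other large neutral amino acids, had 631 and 608 CPM under the HMGB2 siRNA label and 372 and 378 CPM under the scramble label. It rose 1.65-fold (edgeR adjusted p = 3.97e-13), and its heavy chain partner SLC3A2, listed with polyamine transport, rose 1.63-fold, from 168 and 146 CPM to 255 and 258 CPM. METTL16, which methylates the MAT2A hairpins printed above, had 56.7 and 59.3 CPM against 47.1 and 52.1 CPM. Its 1.17-fold rise was a weak call (edgeR adjusted p = 0.0216) that ended in 6 of 10 alternatives, with adjusted p up to 0.256.

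Of 12 tested genes of remethylation and the folate cycle, which feeds methyl groups to MTR, 3 were higher, 2 were lower and 7 did not pass. MTHFD1, SHMT2 and the thymidylate synthase TYMS, which use or make the other folate forms, were 1.23-fold, 1.23-fold and 1.26-fold higher, and MTHFD1L fell by 0.22 on the log2 scale. TYMS shares 53.8% of its exonic length with ENOSF1 on the opposite strand. The call of MTHFD1L ended without either library labelled HMGB2 siRNA (adjusted p = 0.0931 without replicate 1 and 0.298 without replicate 2). BHMT and BHMT2, the liver enzymes that remethylate homocysteine without folate, had 0 counts in all 4 libraries.

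The group for SAH, adenosine and homocysteine removal also holds the methyltransferases GAMT and PEMT, which make SAH. Of its 7 tested genes 0 were higher (2, CTH and GAMT, at an unadjusted edgeR p under 0.05, 0 with DESeq2). The 2 lower were adenosine deaminase (ADA, log2 fold change -0.30) and AHCYL2 (-0.22). The call of ADA ended without HMGB2 siRNA replicate 2 (adjusted p = 0.124), and that of AHCYL2 in 6 of 10 alternatives, the replicate block among them (adjusted p = 0.0565). AHCYL2 and AHCYL1, both relatives of AHCY, had opposite signs, and the AHCYL2 to AHCYL1 ratio per exonic length was 0.0805 and 0.0920 against 0.109 and 0.111. Among 6 genes of methionine salvage after MTAP, 1 was higher, the dioxygenase ADI1 (log2 fold change 0.33; its call ended without HMGB2 siRNA replicate 2, adjusted p = 0.183), and 0 were lower (1 at an unadjusted p under 0.05, 0 with DESeq2).

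Of 7 tested regulators of ornithine decarboxylase and its substrate supply, 2 were higher and 1 was lower (AZIN2, under 5 CPM). OAZ1, the abundant antizyme that sends ODC to the proteasome, did not pass, with a mean of 542 CPM against 519 CPM (SD 17.9 and 5.75, n = 2 each; edgeR adjusted p = 0.499). The second antizyme OAZ2 had 118 and 123 CPM against 79.8 and 74.4 CPM and rose 1.56-fold (edgeR adjusted p = 1.08e-10). AZIN1, the decoy that keeps antizymes off ODC, had 178 and 176 CPM against 125 and 146 CPM and rose 1.30-fold (edgeR adjusted p = 1.57e-05). The ODC1 to OAZ1 ratio per exonic length was 0.242 and 0.256 against 0.237 and 0.215.

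Of 9 tested genes of polyamine breakdown and transport, 2 were higher and 3 lower. SAT1, the acetyltransferase that marks spermidine and spermine for breakdown or export, had 132 and 129 CPM under the HMGB2 siRNA label and 211 and 215 CPM under the scramble label. It fell by 0.71 on the log2 scale (edgeR adjusted p = 9.94e-13) and was called in all 10 alternatives. PAOX, the oxidase that acts on acetylated polyamines, was lower by 0.61, with 7.44 and 5.85 CPM against 9.45 and 11.2 CPM. Its call ended without HMGB2 siRNA replicate 2 (log2 fold change -0.46). SMOX, which oxidises spermine directly, did not pass, with 64.7 and 62.2 CPM against 61.7 and 56.3 CPM (edgeR adjusted p = 0.304). Of the lysosomal and endosomal polyamine transporters, ATP13A2 fell by 0.57 and ATP13A3 rose 1.15-fold, and the latter call ended in 4 of 10 alternatives (adjusted p up to 0.227).

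Spermidine is also the substrate for hypusine, the modified lysine of the translation factor eIF5A. EIF5A did not pass, with a mean of 1116 CPM against 1059 CPM (SD 62.1 and 56.4, n = 2 each; edgeR adjusted p = 0.433), while its paralog EIF5A2 rose 1.62-fold, with 77.5 and 71.7 CPM against 45.2 and 47.0 CPM (edgeR adjusted p = 1.43e-10). DHPS, the enzyme of the first step, rose 1.20-fold, a call that ended without either library labelled HMGB2 siRNA or scramble replicate 2 (adjusted p up to 0.144), and DOHH, the second, did not pass. Of these 4 genes 0 were lower (0 at an unadjusted p under 0.05, 0 with DESeq2).

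**Figure D5:**
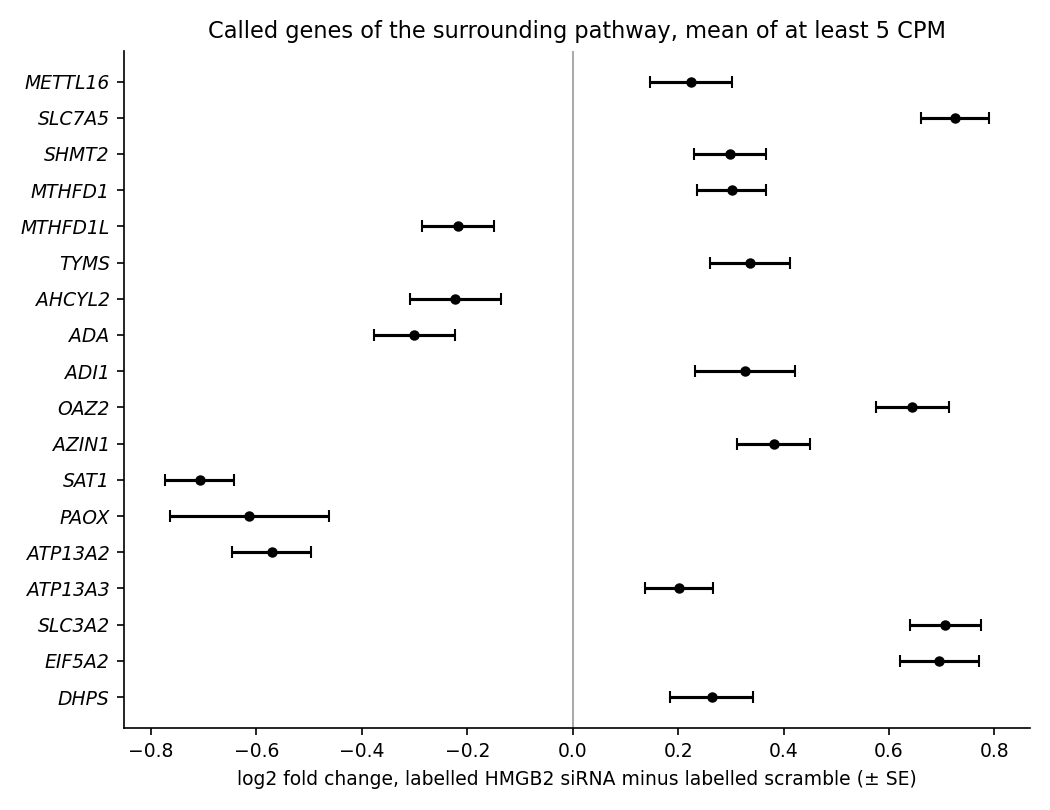
Log2 fold change between the libraries labelled HMGB2 siRNA and those labelled scramble for called pathway genes with a mean of at least 5 CPM, 12 higher and 6 lower, with standard errors from edgeR over 2 libraries a group. SLC7A5, SLC3A2, EIF5A2 and OAZ2 lie between 0.64 and 0.72, and SAT1, PAOX and ATP13A2 between -0.71 and -0.57.

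Of the called pathway genes with a mean of at least 5 CPM, 12 were named as higher and 6 as lower. At least 1 of the 3 heptamers described above was present in the 3′UTRs of 6 of these 12 (METTL16, SLC7A5, OAZ2, AZIN1, ATP13A3 and EIF5A2) and of 1 of these 6 lower genes (AHCYL2). The share over all tested genes with a matched 3′UTR was 22.4%. The 3′UTRs of the 6 higher genes were 1131 to 4945 bases long and that of AHCYL2 3166, against a median of 1014 over those tested genes. Length was not accounted for. The heptamers were absent from the 3′UTRs of the rest of these 12 higher and 6 lower genes. These were SLC3A2, SHMT2, MTHFD1, TYMS, ADI1 and DHPS on the higher side and SAT1, PAOX, ATP13A2, ADA and MTHFD1L on the lower side. ODC1, also called higher, had none. Of the pathway genes called at lower levels, MAT1A and SLC43A2 (higher) held 1 GACAAAG each, and AZIN2 (lower) held no heptamer. Among the named genes nearest MAT2B, SEC23A, SLC9A2 and MYPOP held at least 1 heptamer, and LIN28B held none. Since the words came from the fold changes of these libraries, a surplus on the higher side is built into the choice, and their part in these results was not tested.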

How the data were processed

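Per the file headers and values, the deposited tables hold raw counts of reads over the exons listed for each gene. STAR, SAMtools 1.9, featureCounts of Subread 1.6.3, DESeq2 and build hg38 (GRCh38) are named in the submitters' processing notes; strand, multimapping and overlap settings are not given in the sources used here. Groups follow the labels of the sample that each table is recorded under. Counts were tested in R 4.3.3 with edgeR 4.0.16 (quasi-likelihood, TMM, filterByExpr with smallest count 10 and total 15, group as the only term). P-values were adjusted by Benjamini-Hochberg over 15161 genes and called under 0.05. The procedure was also run on counts simulated with the spread estimated from these libraries. That run cannot show whether the libraries of a group are separate cultures. SE is the absolute log2 fold change over the square root of F. For a single value the exact two-sided permutation p of this design is at least 0.333. Libraries of a group differed beyond sampling noise (chi-square per degree of freedom 3.1 and 5.68). Limits for 0 counts cover counting error only. 3′UTRs are those of the GENCODE 29 transcript with the longest coding sequence, and 3000 tested genes had none matched. The genes, lists and heptamers were chosen with earlier results of these data known. Named were all 10 genes, HMGB2, called pathway genes of at least 5 CPM (1 lower gene is not reported here), and the 5 nearest MAT2B (pseudocount 0.5 CPM), 1 of them not reported here. The rule also took the most abundant gene of any group without a call, and there was none. The neighbours of MTAP were a list of their own, and other pathway genes were named after their values were seen. Alternatives were other scalings, no low-count filter, DESeq2 1.42.0, a replicate block and leaving out each library. DESeq2 gave no adjusted p for 2352 of the 15161 genes, and these stand as not called in its counts. Python 3.11.15 and matplotlib 3.10.9 were used.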

Additional observations from a re-analysis of the deposited data

How the results depend on the processing

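In each of the 10 alternatives 2 or 3 of the 9 genes taken by name were called higher and 0 lower, and HMGB2 was called at a log2 fold change of 3.02 to 3.11. Without scramble replicate 2 the 3 were MTR, AMD1 and AHCYL1 in place of ODC1. Among all tested genes 2536 were called higher and 2135 lower. Leaving out a library gave 1481 to 2904 higher and 903 to 2291 lower, lowest without HMGB2 siRNA replicate 1 (1481 and 903) and replicate 2 (1603 and 1024), and DESeq2 gave 1922 and 1286. Leaving out a library gave 9 to 13 pathway genes higher instead of 14 and 4 to 9 lower instead of 8, with 9 and 5 without HMGB2 siRNA replicate 1 and 9 and 4 without replicate 2. Called genes were 54.3% higher with TMM, 42% with upper-quartile and 43.3% with total-count scaling, which moved the median of all genes to -0.06 and -0.05. Of the genes taken by name that were not called, MAT2A, AHCY, SRM and SMS changed sign in some alternatives, while AHCYL1 and MTAP did not. Without a low-count filter MAT2A was at 0.0084 and AHCY at 0.0006, and SMS was at -0.0477 with upper-quartile and -0.0441 with total-count scaling. Over the 4 leave-one-out fits MAT2A ranged from -0.0631 to 0.0544, AHCY from -0.0771 to 0.0548, SRM from -0.1144 to 0.0033 and SMS from -0.0205 to 0.0362 (log2 fold changes). MAT2B stayed between 1.91 and 2.20. The cause of these shifts was not tested. In leave-one-out fits the lone library is assumed to vary like the others. Same-numbered libraries did not deviate together (r = -0.0144 across 15161 genes, which are not independent). Counting noise also enters this value, so it cannot show whether they share a culture or a preparation. With the replicate block 2446 genes were higher and 2011 lower, the 9 genes stayed at 3 and 0, pathway genes at 14 and 7, and HMGB2 at 3.07.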
